A study of Rattus norvegicus with 2 samples.

Results

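The annexins and S100a10 were read in the mRNA profiles of cultured cortical neurons after PIWIL1 knockdown. The set held 9 genes of the 9894 with a tag in either library, namely Anxa1, Anxa2, Anxa3, Anxa4, Anxa5, Anxa6, Anxa7, Anxa11 and S100a10. They were chosen by name from an earlier look at these libraries, in which Anxa2 was set against S100a10 and the other annexins for its low ratio, so every value of the knockdown contrast below is a description and carries no test. All 9 were found by RefSeq accession, and all 9 had copies in both libraries.

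The neurons came from the somatosensory cortex of Sprague-Dawley rats at E16, were dissociated, electroporated with a scrambled control plasmid (Scramble) or with a plasmid coding for an siRNA against PIWIL1 (PIWIL1 RNAi), and were cultured for 48 h in Neurobasal medium with serum and B27. Which of the rat siRNAs was used is not given in the sources used here, and no sorting of transfected cells is described for these cultures. Each condition had 1 library, so the ratios have no replicate check. In this digital gene expression assay transcripts are cut at CATG sites and counted by tags of 21 bases that begin with CATG, and the deposited level of a gene is the sum of its tag copies, scaled to the clean tags of the library as TPM without regard to gene length. The Scramble library held 1947600 copies on genes and the PIWIL1 RNAi library 1865913. The lowest copy number of a listed tag was 2, so a tag that is not listed may have had 1 copy. A limit of 3 copies, about the single-sided 95% Poisson upper limit for a count of 0, equaled 0.886 TPM for Scramble and 0.908 TPM for PIWIL1 RNAi. No copies were found for Piwil1 by its symbol, so the knockdown itself was not checked in these libraries. All intervals below are at 95% and cover counting error alone. They take each copy as a separate molecule, so they are too narrow where copies were made by amplification.

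Annexins are cytosolic proteins that bind acidic phospholipids when calcium rises, and they take part in membrane trafficking, membrane repair and the organization of the cortical cytoskeleton. S100a10, also called p11, belongs to the S100 family of small dimeric proteins but has lost the ability to bind calcium. A dimer of S100a10 joins a pair of Anxa2 molecules through the amino-terminal end of Anxa2, and the complex links membranes to actin, helps to carry channels and receptors to the cell surface and binds plasminogen there. In many cell types S100a10 protein is unstable without Anxa2.

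The tags that carry most copies of the 4 genes with the lowest ratios are shown first, because the ratio of a gene in this assay is the ratio of its tags. Sites are numbered from the 3′ end of the transcript, and capitals mark the last 2 bases of the tag, by which tags are compared further on.
Anxa2, site 1: catgagacacttcctcataTG
Anxa2, site 2: catggtggattgcccagaaGT
S100a10, site 1: catggggtcaactgaggaaTC
Anxa1, site 1: catgaatgaaatcaaagtaTT
Anxa7, site 1: catgtcaatgacatagtaaTG
Anxa7, site 2: catgttgtcactgccttaaTT

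None of the 38 tags of the 9 genes had another listed tag at a distance of 1 mismatch after CATG. The RefSeq gene table names 8 pseudogenes of Anxa2, 4 of Anxa7 and 1 of S100a10. Each tag was listed under 1 gene as deposited, and whether such copies contributed to it was not tested.

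Anxa2 was the most copied of the 9 genes in control neurons, and it had the largest difference in TPM. It had 253 copies (74.7 TPM, interval 65.8 to 84.5) in the Scramble library and 84 copies (25.4 TPM, interval 20.3 to 31.5) in the PIWIL1 RNAi library. This was a ratio of 0.340, a 2.94-fold lower level, with a log2 ratio of -1.55 (exact interval -1.93 to -1.19). This value rests on tags ending in TG or GT, the ends with the lowest ratios in these libraries, and was -0.95 with each tag adjusted for its end and 0.19, from 9 and 10 copies, without such tags. Over all tags, of the 6010 genes whose copies over both libraries reached 50, 22 (0.366%) had a lower log2 ratio. The median log2 ratio of these 6010 genes was -0.071.

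S100a10 was the next most copied gene in control neurons and was also lower, by a smaller amount. It had 178 copies (52.6 TPM, interval 45.1 to 60.9) in the Scramble library and 116 copies (35.1 TPM, interval 29.0 to 42.1) in the PIWIL1 RNAi library. Its log2 ratio of -0.582 (exact interval -0.93 to -0.24) lay just past 0.58, the threshold on the ratio that the study used. With edgeR's TMM factors the log2 ratio was -0.49 and no longer past this threshold, and 12.3% of the 6010 genes had a lower one.

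**Figure D1:**
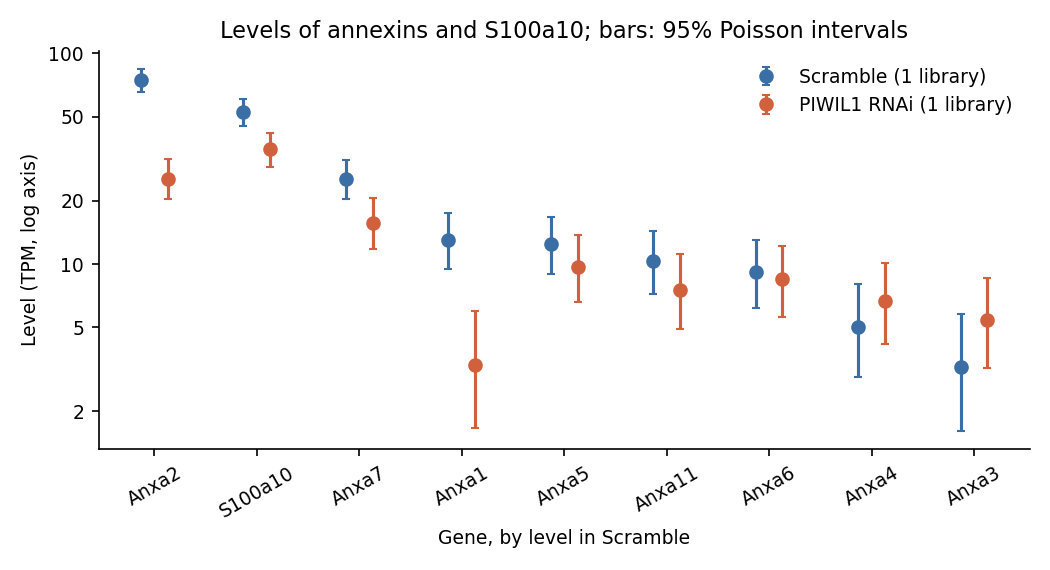
Level of each gene in TPM (log axis) in the Scramble library (blue) and the PIWIL1 RNAi library (orange), with exact 95% Poisson intervals, ordered by the Scramble level. Anxa2 leads in the Scramble library at 74.7 TPM and S100a10 in the PIWIL1 RNAi library at 35.1 TPM, and Anxa1 is last in the PIWIL1 RNAi library.

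Over all tags the partners therefore changed places between the libraries. There were 1.42 copies of Anxa2 for each copy of S100a10 (exact interval 1.17 to 1.73) in the Scramble library and 0.724 copies (exact interval 0.540 to 0.967) in the PIWIL1 RNAi library. The log2 ratio of Anxa2 was lower than that of S100a10 by a difference of -0.97 (interval -1.46 to -0.48). This difference does not depend on how the libraries are scaled. With each tag adjusted for its last bases, as described below, it was -0.33, and without the tags ending in TG or GT it was 0.83. No interval was computed for these 2 values. Adjusted copies were 203 of Anxa2 against 180 of S100a10 under Scramble, and 103 against 115 under PIWIL1 RNAi. Without tags ending in TG or GT, Anxa2 had fewer copies than S100a10 in both libraries (9 against 171 and 10 against 107).

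Anxa1 was the one other member with a ratio as low as that of Anxa2, although from few copies. The protein is induced by glucocorticoids, and its amino-terminal peptides act on formyl peptide receptors to limit inflammation. Anxa1 had 44 copies (12.99 TPM) under Scramble and 11 (3.33 TPM) under PIWIL1 RNAi. Its log2 ratio was -1.96 (exact interval -3.07 to -0.99), and 3 of the 6010 genes had a lower one. The difference between the log2 ratios of Anxa2 and Anxa1 was 0.41 with an interval from -0.61 to 1.43, so that these 2 genes could not be ordered at this depth.

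Anxa7, the annexin first described as synexin for its aggregation of chromaffin granules, was lower by an amount close to that of S100a10. It had 86 copies (25.4 TPM) under Scramble and 52 (15.7 TPM) under PIWIL1 RNAi, with a log2 ratio of -0.69 (exact interval -1.22 to -0.18). Adjusted for the last bases of its tags, Anxa7 had a log2 ratio of -0.45, within the threshold. The difference of Anxa2 from Anxa7 was -0.86 (interval -1.48 to -0.25), but -0.50 with the same adjustment and 0.92 without tags ending in TG or GT.

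The intervals of the other 5 annexins included 0, and no difference could be detected at their depth. Anxa5, the phosphatidylserine binder used to stain dying cells, had 42 and 32 copies in the Scramble and PIWIL1 RNAi libraries, with a log2 ratio of -0.36 (exact interval -1.07 to 0.34). Anxa6, which carries a duplicated annexin core, had 31 and 28 copies, with a log2 ratio of -0.11 (exact interval -0.90 to 0.67). Anxa11, which tethers RNA granules to lysosomes and binds Pdcd6, had 35 and 25 copies, with a log2 ratio of -0.45 (exact interval -1.25 to 0.33). These 3 genes were all lower in the PIWIL1 RNAi library by less than the threshold. From the most copied tag alone the sign turned for Anxa6 (9 and 13 copies) and Anxa11 (12 and 13 copies).

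Anxa3 and Anxa4 were the least copied annexins and the ones with more copies in the PIWIL1 RNAi library. Anxa3 had 11 and 18 copies, with a log2 ratio of 0.75 (exact interval -0.41 to 1.97). Anxa4, an annexin of epithelial membranes, had 17 and 22 copies, with a log2 ratio of 0.41 (exact interval -0.57 to 1.41). Both had fewer than 50 copies in all. Anxa2 differed from each of these 5 annexins by an interval that did not include 0, from -1.11 (interval -1.93 to -0.28) against Anxa11 to -2.30 (interval -3.44 to -1.16) against Anxa3. Adjusted for the tag end, these differences ran from -0.75 against Anxa5 to -1.66 against Anxa3, and no intervals were computed for them. Without tags ending in TG or GT the direction turned against Anxa5 (0.36), Anxa6 (0.27) and Anxa11 (0.55), with 19 copies of Anxa2 left.

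**Figure D2:**
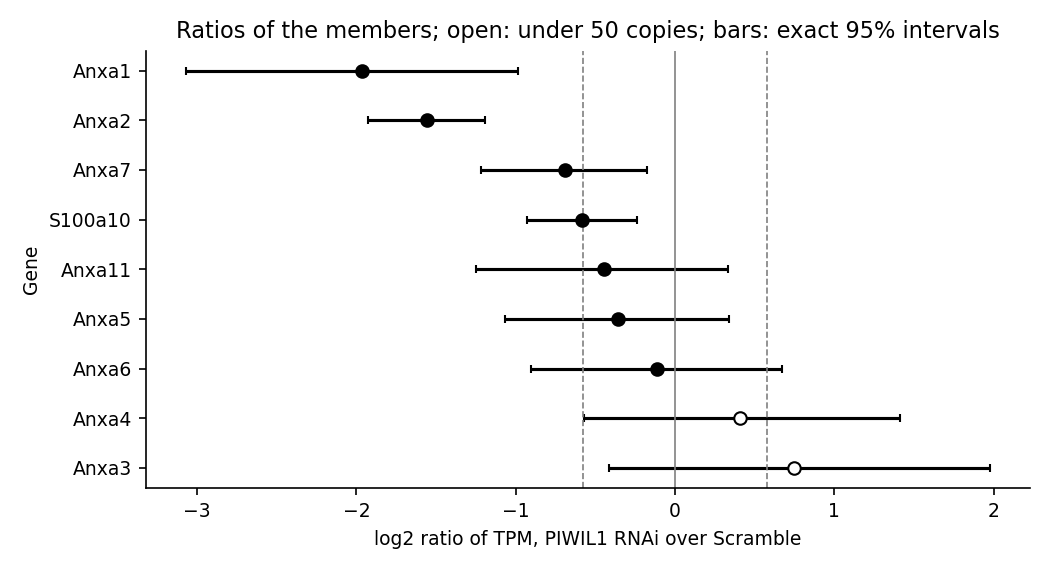
The log2 ratio of TPM (PIWIL1 RNAi over Scramble) for each of the 9 genes, with exact 95% intervals for counting error, and dashed lines at 0.58 on either side of 0. Anxa1, Anxa2, Anxa7 and S100a10 have intervals below 0, and open circles mark Anxa3 and Anxa4, which had fewer than 50 copies.

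Of the 9 genes, 7 had at least 50 copies in both libraries together, and 4 of these 7 (Anxa1, Anxa2, Anxa7 and S100a10) were past the threshold on the lower side and 0 on the higher side. Among all 6010 genes with that many copies, 12.3% were past it on the lower side and 5.86% on the higher side. With TMM factors 555 of all genes were past the threshold on the lower side and 512 on the higher side, against 741 and 352 as deposited. The share depended on the number of copies, and it was 18.1% of genes with 50 to 150 copies, the range of Anxa1 and Anxa7, on the lower side. It was 8.72% of genes with 200 to 500 copies, the range of Anxa2 and S100a10. The 9 genes were chosen on this contrast, so nothing is read from their count beside these shares. The median log2 ratio of the 9 genes was -0.45.

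**Figure D3:**
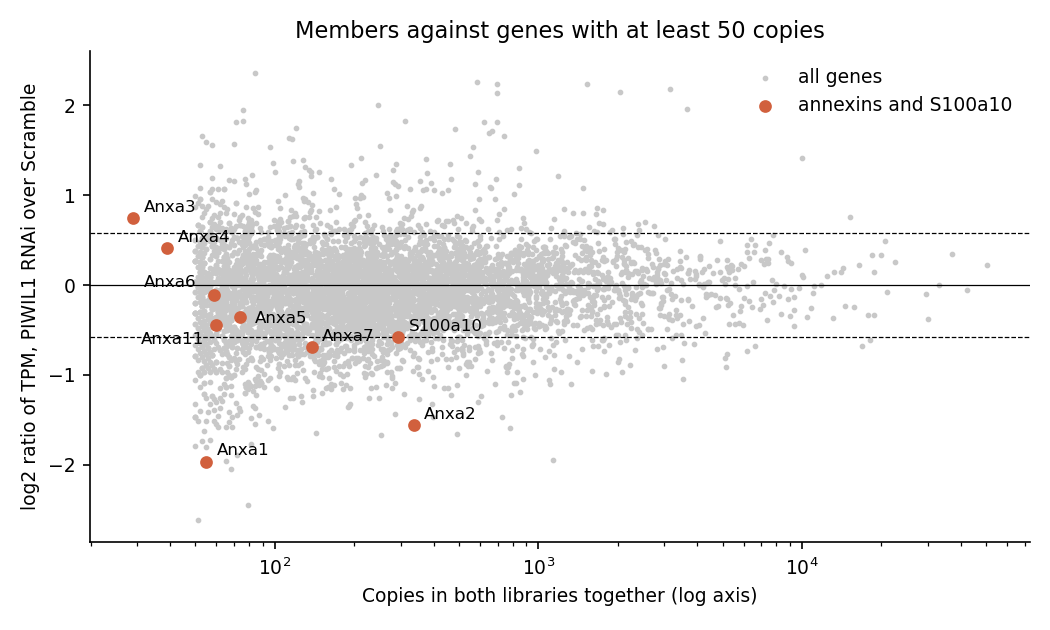
The log2 ratio of TPM against the copies in both libraries together (log axis) for genes with at least 50 copies (grey) and for the 9 named genes (orange), with dashed lines at 0.58 on either side of 0. Anxa2 lies at -1.55 with 337 copies, below nearly all genes of like copy number, while S100a10 lies on the lower line with 294 copies.

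Over all tags, Anxa2 was the most copied annexin in both libraries, with a smaller share of annexin copies in the PIWIL1 RNAi library. It accounted for 253 of 519 annexin copies (48.7%, exact interval 44.4% to 53.1%) in the Scramble library and 84 of 272 (30.9%, exact interval 25.4% to 36.7%) in the PIWIL1 RNAi library. The 7 other annexins together had 266 copies under Scramble and 188 under PIWIL1 RNAi, a log2 ratio of -0.46 (exact interval -0.74 to -0.19). In the order of tag counts, which is not an order per transcript length, Anxa2 was followed by S100a10, Anxa7, Anxa1, Anxa5, Anxa11, Anxa6, Anxa4 and Anxa3 under Scramble. Under PIWIL1 RNAi S100a10 came first, then Anxa2 and Anxa7, and Anxa1 last. The intervals of neighbors from Anxa1 to Anxa3 in the Scramble order overlapped. These shares and orders rest on tags ending in TG or GT, which held 94.4% of the Anxa2 copies. Without such tags Anxa2 had 9 and 10 copies and Anxa7 68 and 40, so Anxa2 no longer led the annexins. Adjusted for the tag end, Anxa2 still led, with 203 and 103 copies against 79 and 57 of Anxa7. The shares were not recomputed in either way.

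The copies of Anxa2 and S100a10 were then followed along the transcript. Both genes were read mainly from the CATG site nearest the 3′ end, and for both the lower count lay mostly at this site. The site 1 tag of Anxa2 had 216 copies under Scramble and 60 under PIWIL1 RNAi, with a log2 ratio of -1.81 (exact interval -2.25 to -1.39). The site 2 tag had 28 and 14 copies, with a log2 ratio of -0.96 (exact interval -2.003 to 0.010). The site 3 tag had 9 and 6 copies, and a tag at site 6 was listed in the PIWIL1 RNAi library alone with 4 copies. All sites but the first together gave 37 and 24 copies, with a log2 ratio of -0.59 (exact interval -1.39 to 0.19).
For S100a10 the site 1 tag had 152 and 91 copies, with a log2 ratio of -0.70 (exact interval -1.10 to -0.32). Its tags at sites 3, 4, 5 and 7 together had 26 copies under Scramble and 25 under PIWIL1 RNAi, with a log2 ratio of -0.021 (exact interval -0.87 to 0.83). Most S100a10 copies lay at site 1, and the interval of its other sites includes -0.70, so a change limited to site 1 is not shown.

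The share of Anxa2 copies at site 1 was 85.4% (exact interval 80.4% to 89.5%) in the Scramble library and 71.4% (exact interval 60.5% to 80.8%) in the PIWIL1 RNAi library. For S100a10 it was 85.4% (exact interval 79.3% to 90.2%) and 78.4% (exact interval 69.9% to 85.5%). The log2 ratio at site 1 minus that at the other sites was -1.22 (interval -2.07 to -0.38) for Anxa2 and -0.68 (interval -1.56 to 0.19) for S100a10. Among 2832 genes with at least 50 copies both at site 1 and at their other sites, the median of this difference was 0.10, the quartiles were -0.31 and 0.47 and the central 95% ran from -1.25 to 1.43. Anxa2 lay near the lower end of this range and S100a10 within it.
Anxa1 was lower both at site 1, with 32 and 9 copies, and at its other sites, with 12 and 2 copies. Anxa7 was read mainly from site 2, with 66 and 40 copies, against 18 and 12 at site 1. For these 2 genes the log2 ratio at site 1 and at the other sites had the same sign.

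**Figure D4:**
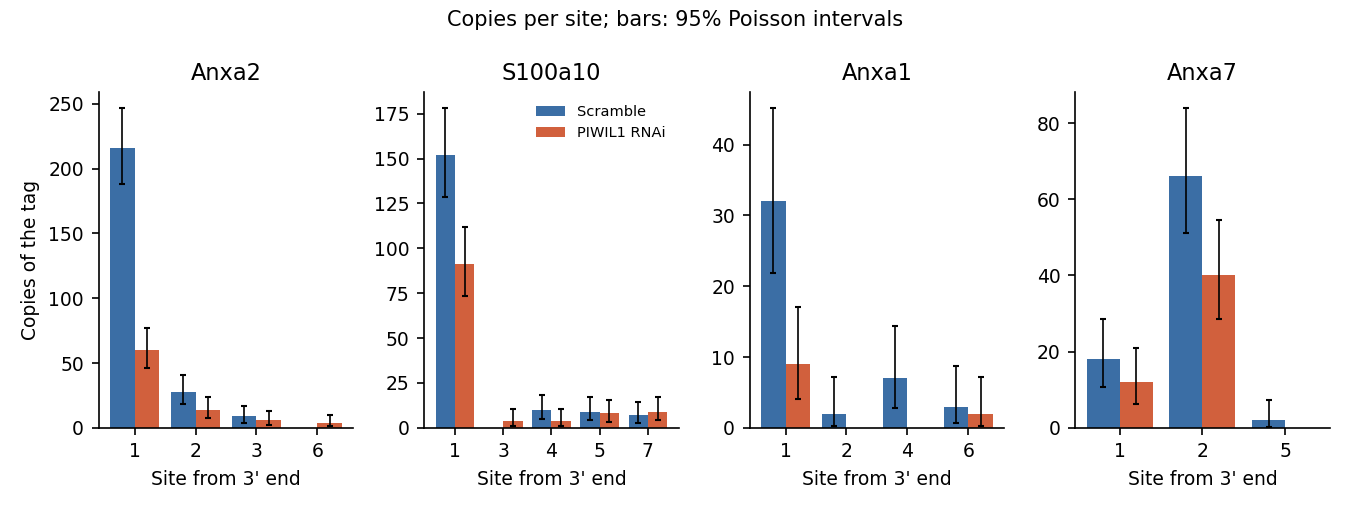
Copies of each tag of Anxa2, S100a10, Anxa1 and Anxa7 by CATG site, counted from the 3′ end, in the Scramble library (blue) and the PIWIL1 RNAi library (orange), with exact 95% Poisson intervals for listed tags and a y axis of its own in each panel. At site 1 Anxa2 has 216 and 60 copies and S100a10 152 and 91, while their other sites differ less, and Anxa7 is read mainly from site 2.

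The ratio between these libraries also varied with the last bases of a tag, and the tags of Anxa2 belong to the ends with the lowest ratios. Among tags with at least 20 copies, the median log2 ratio was -0.67 for the 866 tags ending in TG and -0.67 for the 634 ending in GT, against -0.077 for all 16021 tags. The Anxa2 tags at sites 1 and 2 end in TG and GT and held 94.4% of its copies. The site 1 tag, at -1.81, was below the lower quartile of tags ending in TG (-1.30), and 75 of the 866 (8.66%) had a lower log2 ratio. The site 2 tag lay within the quartiles of its end, with 30.6% of the 634 tags lower.
Without the tags ending in TG or GT, Anxa2 had 9 copies under Scramble and 10 under PIWIL1 RNAi, with a log2 ratio of 0.19 (exact interval -1.27 to 1.66). This interval excludes -1.55, the log2 ratio over all tags, and includes -0.95, the adjusted value below. With each tag adjusted by the median of its end, the log2 ratio of Anxa2 was -0.95, still past the threshold. Of the 55 genes (a limit set after seeing the values) with over 90% of their copies on tags ending in TG or GT, the median log2 ratio was -0.55, 26 (47.3%) were past the threshold on the lower side and 4 (7.27%) were lower than Anxa2. Of the 3135 genes with no copies on such tags the median was -0.021. How much of the Anxa2 difference goes with the tag end was not tested beyond these values.

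Most copies of the other members were on tags with other ends. The site 1 tag of S100a10 ends in TC, an end with a median of 0.021, and 8.60% of the 1081 tags with this end had a lower log2 ratio. The site 1 tag of Anxa1 ends in TT, with a median of -0.21, and 7 of 1365 such tags (0.513%) were lower. Tags ending in TG or GT held 5.44% of the copies of S100a10 and 12.7% of those of Anxa1. The site 2 tag of Anxa7 ends in TT as well, with 15.6% of such tags lower. Adjusted in the same way as Anxa2, S100a10 had a log2 ratio of -0.61 and Anxa1 one of -1.80. No tag of the 9 genes ended in 8 or more A.

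**Figure D5:**
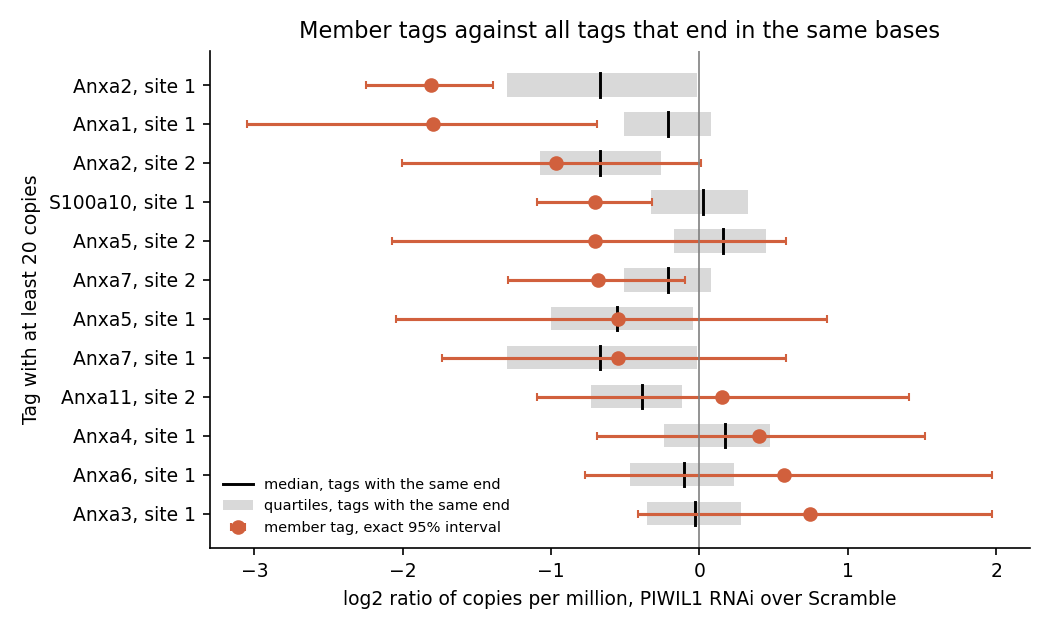
The log2 ratio of copies scaled to clean tags (PIWIL1 RNAi over Scramble) for the 12 tags of these genes with at least 20 copies (orange, exact 95% intervals), each against the quartiles (grey) and the median (black) of all tags with the same last bases. The site 1 tags of Anxa2, Anxa1 and S100a10 lie below the quartiles of their ends, at -1.81, -1.79 and -0.70. So do the site 2 tags of Anxa5 and Anxa7, at -0.70 and -0.69. The site 1 tags of Anxa3 and Anxa6 and the site 2 tag of Anxa11 lie above the quartiles of their ends.

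None of the further genes of the annexin and S100 systems with enough copies was past the threshold. Among all 6010 genes with at least 50 copies, 12.3% were past it on the lower side and 5.86% on the higher side. A count of 0 in lists as short as those below therefore says little. Of 14 further S100 genes, 6 had a value, 4 of them had at least 50 copies and 0 were past the threshold. The 6 together had 258 copies under Scramble and 250 under PIWIL1 RNAi, with a log2 ratio of -0.0094 (exact interval -0.27 to 0.25). S100a6, a partner of Anxa11, had 96 and 79 copies (log2 ratio -0.25), and S100a11, a partner of Anxa1, had 65 and 68 (log2 ratio 0.10). No value was found by symbol for Anxa8, Anxa9, Anxa10 and Anxa13.
Cell-surface plasmin formation, which the Anxa2 and S100a10 complex assists, was represented by 8 of 12 genes of the plasminogen system. Of these, 7 had at least 50 copies and 0 were past the threshold. Plat, the tissue plasminogen activator, had 54 and 55 copies, and no value was found for Plg by symbol. The protease gene Ctsb had 541 and 642 copies, with a log2 ratio of 0.28, and Mmp9 had 151 and 122, with a log2 ratio of -0.27.

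Of 16 named partners of annexins or S100a10, 10 had a value, 5 had at least 50 copies and 0 were past the threshold. Tsg101, a subunit of a membrane-budding complex, and Pdcd6, a calcium sensor that binds annexins, had 667 and 665 copies (log2 ratio 0.032) and 479 and 536 copies (log2 ratio 0.20). The calpain gene Capn2, which codes for a calcium-activated protease, had 198 and 134 copies, with a log2 ratio of -0.53 (exact interval -0.85 to -0.20). Sri, the sorcin partner of Anxa7, had 25 and 5 copies, too few for the count. The log2 ratio of Sri was -2.29 (exact interval -4.03 to -0.87). Plat, Capn2 and Sri are named here after their values were seen. Of 9 copines, which bind membranes in the presence of calcium as annexins do, 4 had a value. Only 1 of them, Cpne5 with 40 and 38 copies, had enough for the count, and it was not past the threshold. Cpne4 had 22 and 14 copies. The log2 ratios of Cpne4 (-0.62), Cpne8 (-1.29) and Cpne6 (0.81) came from too few copies for the count, and their intervals included 0.

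The genes with levels nearest to Anxa2 in both libraries, by distance on the log2 TPM scale over the 2 libraries, were Adap1 (217 and 91 copies), Insig1 (251 and 102 copies) and B4galt5 (210 and 76 copies). Those nearest to S100a10 were Klhl9 (180 and 117 copies), Rgs10 (174 and 115 copies) and Fbxo22 (173 and 115 copies). With 2 libraries such likeness is a match of 2 levels and no more.

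Anxa1, Anxa2 and S100a10 are more abundant in glia, endothelium and fibroblasts than in most neurons, so the markers of these cells were read in the same libraries. In a bulk culture fewer cells of a type and less RNA per cell cannot be told apart. The 8 neuronal markers had 13961 copies under Scramble and 12212 under PIWIL1 RNAi (4122 and 3697 TPM), led by Stmn2 with 7484 and 5678. Their summed log2 ratio was -0.16 (exact interval -0.19 to -0.12). It was -0.33 (12142 and 9408 copies, exact interval -0.37 to -0.29) once tags with a final A run of that length, 8 or longer, were dropped. Dropping them removed 74.4% of Gap43, the next most copied marker, which was higher over all its tags (2670 and 3541 copies, log2 ratio 0.44). Dcx had 1337 and 1365 copies (log2 ratio 0.066). Among the 8 neuronal markers 4 were lower and 4 were higher. Of the 5 neuronal markers with at least 50 copies 1 was past the threshold, Snap25, which codes for a protein of synaptic vesicle fusion. It had 918 and 545 copies, with a log2 ratio of -0.72 (exact interval -0.87 to -0.56). All 8 markers of fibroblasts and mural cells had a value as well, with 2714 and 2636 copies (801 and 798 TPM, log2 ratio -0.0060, exact interval -0.084 to 0.072), of which Col1a1 had 1254 and 1143. Of these 8 markers 5 were lower and 3 were higher. Tagln, the next most copied after Col1a1, was higher, with 565 and 661 copies (log2 ratio 0.26, exact interval 0.098 to 0.43). None of the 5 with at least 50 copies was past the threshold. Dcn, Lum and Pdgfrb had too few for the count.
Of the 8 radial glia markers, 7 were lower in the PIWIL1 RNAi library and 1 of them, Hes1, was past the threshold (52 and 29 copies). Their summed copies were higher (3701 and 4524, 1093 and 1370 TPM), with Vim at 2674 and 3724. The 4 astrocyte markers with a value had 736 and 803 copies (217 and 243 TPM), and Aqp4 had none by symbol. The 5 markers of oligodendrocyte precursors had 17 and 19 copies (5.02 and 5.75 TPM).
The endothelial markers were close to the limit, with 4 copies in each library from 2 of 7 genes (1.18 and 1.22 TPM), and no value was found by symbol for Pecam1, Cdh5, Kdr, Tek and Cldn5. For microglia and macrophages 6 of 8 genes had a value and Cx3cr1 and Itgam had none. Their sum of 2871 and 7340 copies (848 and 2222 TPM) was almost entirely Cd68, of which 99.3% lay on tags with a final run of 8 or more A. Without such tags the list had 129 and 137 copies. The part of these cells in the values of Anxa1, Anxa2 and S100a10 was not tested.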

How the data were processed

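Tag counts and TPM of 2 digital gene expression libraries were used as the authors deposited them, without normalization for the count and scaled to clean tags for the TPM. A gene's count equaled its listed tags added up. The submitters' processing notes name the genome build rn4. The aligner, the clean-tag filter and the reference transcripts are not given in the sources used here, and no coordinates are printed.

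Symbols came from RefSeq accessions (GRCr8 gene table), which matched 9337 of 9894 genes (94.4%). Log2 ratios of single genes are of the deposited TPM, and those of tags and sums are of copies scaled to clean tags (3386860 and 3303344, recovered from count and TPM). With 1 library per condition and members chosen with earlier results of these data known, as were the lists, no test was run. Intervals of ratios and shares are exact (Clopper-Pearson), those of levels are Poisson, and those of differences between log2 ratios are normal on 4 Poisson counts. A gene counted as past the threshold at an absolute log2 ratio of 0.58 or more with 50 copies or more over both libraries. All 9 members are named, of each list of related genes those past the threshold and the 2 most copied (this rule did not cover the cell type markers), and the 3 genes nearest in level to Anxa2 and to S100a10.

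To adjust for the tag end, each tag was put in a class by its final run of A or else its last 2 bases. The class median of log2 ratios (20 copies or more, 0.5 added), relative to that of all tags, was taken from alternate genes and subtracted from the tags of the rest. Scripts were tested on simulated counts. Python 3.11.15, NumPy 2.4.6, pandas 2.3.3, SciPy 1.17.1, Matplotlib 3.10.9, R 4.3.3, edgeR 4.0.16 and DESeq2 1.42.0 (both for scaling factors only) were used.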

Additional observations from a re-analysis of the deposited data

How the results depend on the processing

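Anxa2 was past the threshold on the lower side in 10 of 11 alternatives that recomputed it. This tally is not one of separate checks. Leaving out tags ending in 8 or more A, or summing copies per symbol, did not change the Anxa2 copies. The other scalings used the same 253 and 84 copies. Without tags ending in TG or GT the log2 ratio of Anxa2 was 0.19 and its difference from S100a10 was 0.83, with 9 and 10 copies of Anxa2 left. Corrected for the tag end these values were -0.95 and -0.33. With the tag nearest the 3′ end left out, an alternative chosen after seeing the data, the log2 ratio was -0.59 for Anxa2 and -0.021 for S100a10. S100a10 was past the threshold in 6 of 11 alternatives and Anxa1 in 8 of 11, the rest leaving Anxa1 fewer than 50 copies.

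Without tags ending in TG or GT, 2 of the 4 members with enough copies were past the threshold on the lower side (Anxa7 and S100a10). Anxa1 and Anxa2 were then under 50 copies. The number was 2 of 7 at a log2 threshold of 1 (Anxa1 and Anxa2) and 2 of 4 without the tag nearest the 3′ end (Anxa2 and Anxa7). With no count minimum, or with at least 10 copies in each library, 1 member, Anxa3, was past it on the higher side. Over all genes the counts on the lower and higher side were 532 and 384 of 5733 without tags ending in TG or GT. They were 2227 and 1281 of 9894 with no count minimum, and 974 and 471 of 7130 with at least 10 copies in each library. At a log2 threshold of 1 they were 175 and 100 of 6010. Without the tag nearest the 3′ end, where fewer genes had enough copies, they were 567 and 139 of 3972. No paired analysis was possible because each condition had 1 library. Depth limits Anxa3, Anxa4, Anxa5, Anxa6 and Anxa11, whose intervals include 0.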
